A study of Mus musculus with 3 samples.

Results

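Internal Sμ deletions are joins between a broken end near the start of the switch region Sμ and a second break further into the same Sμ, with the sequence between them lost. They were taken as all junctions whose prey lay in Sμ (mm9 chr12:114661500-114671500) on the minus strand, the strand on which the bait is read. There were 631 of them among the 2995 junctions of the 3 libraries. DNA-PKcs PQR/PQR replicate 1 gave 381 of 1681 junctions, DNA-PKcs PQR/PQR replicate 2 gave 77 of 472 junctions and DNA-PKcs-/- replicate 5 gave 173 of 842 junctions. A junction is 1 line of the deposited sheets, and it is called deletional here when its prey is on the bait's strand and inverted when it is on the opposite strand.

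The libraries came from high-throughput genome-wide translocation sequencing (HTGTS) of genomic DNA. Splenic B cells without CD43, from mice on a 129Sv background with preassembled heavy chain and κ light chain loci, were stimulated in culture with 1 ng/mL of anti-CD40 and 20 ng/mL of IL-4 and harvested after 4 days. The PQR/PQR cells were homozygous for PQR, an allele of DNA-PKcs with a changed cluster of phosphorylation sites. The cells they were set against lacked DNA-PKcs and served as the control of the series. The labels give no promoter or Cre for either allele, and leave unsaid whether PQR/PQR replicates 1 and 2 were different animals, so the spread of their values can be technical. Wild-type cells are not analysed here.

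In class switch recombination, activation-induced deaminase (AID) acts on repetitive switch regions, and its favoured target AGCT recurs many times in the core of Sμ. Breaks in Sμ are joined to a downstream switch region, which changes the antibody class, or to another break in Sμ, which only shortens it. Classical end joining, to which DNA-PKcs belongs, leaves direct joins or a few shared bases, and alternative end joining tends to use longer shared bases (microhomology, MH). Joins within Sμ need no downstream partner, so they show how 2 ends within the same switch region were joined.

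The bait is printed because its bases decide where MH with the Sμ repeats is possible. The nested primer starts at position 114669257 of chromosome 12 and reads towards Cμ, that is, to lower coordinates. The majority base of the reads from the primer to the first AflII site (chr12:114669149-114669257, minus strand) is given with the AGCT motifs and the AflII site in capitals. AflII digestion removes unrearranged molecules, so a deletion is recovered when it takes this site with it or when digestion was incomplete.
biotin primer: cagacctgggaatgtatggt
nested primer: cacacaaagactctggacctc
bait: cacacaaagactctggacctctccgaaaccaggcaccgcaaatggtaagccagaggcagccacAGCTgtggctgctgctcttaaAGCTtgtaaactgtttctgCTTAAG

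Single deletions were chosen for printing as the longest MH, the longest insertion and a direct join of typical length in each of the 2 libraries with a list of Sμ junctions, PQR/PQR replicate 2 and DNA-PKcs-/- replicate 5. Up to 30 bases stand on each side, in the reading direction of the bait. Capitals mark bases aligned to both ends (MH), bases aligned to neither (insertion), or the 2 bases that meet at a direct join.
PQR/PQR replicate 2, longest MH: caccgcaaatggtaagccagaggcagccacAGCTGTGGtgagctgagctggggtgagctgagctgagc
PQR/PQR replicate 2, longest insertion: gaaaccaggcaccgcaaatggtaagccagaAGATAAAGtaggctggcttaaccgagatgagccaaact
PQR/PQR replicate 2, direct join: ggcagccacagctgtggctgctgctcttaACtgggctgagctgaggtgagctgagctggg
DNA-PKcs-/- replicate 5, longest MH: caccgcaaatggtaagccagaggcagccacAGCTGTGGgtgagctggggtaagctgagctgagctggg
DNA-PKcs-/- replicate 5, longest insertion: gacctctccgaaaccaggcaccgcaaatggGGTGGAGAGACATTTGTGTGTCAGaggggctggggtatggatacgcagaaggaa
DNA-PKcs-/- replicate 5, direct join: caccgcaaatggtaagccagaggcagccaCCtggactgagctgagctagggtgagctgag
In PQR/PQR replicate 2 their prey ends lay at 114667760, 114668203 and 114667668, with coordinates 1427 bp, 1001 bp and 1506 bp below the bait ends. In DNA-PKcs-/- replicate 5 they lay at 114665768, 114668559 and 114667987, with coordinates 3419 bp, 654 bp and 1208 bp below the bait ends. The prey of its longest MH junction is listed from 114664800 to 114665768, far longer than the median prey of 106 bp in this library. How the read covers that stretch was not checked, so this position is less sure. The prey side of both direct joins and of both long MH junctions holds runs of the gagct repeat of Sμ. Both 8-bp MH junctions ended the bait at the same base, 114669187, and their shared bases begin with the first AGCT of the bait. At 1 of their 8 shared bases the read differs from the germline bases listed for the prey, so the recorded MH is an overlap of 2 alignments, not always a perfect match.

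Deletional joins were 22.7% of all junctions in PQR/PQR replicate 1 (95% Newcombe interval of the difference from DNA-PKcs-/- replicate 5: -1.34 to 5.43 percentage points), 16.3% in PQR/PQR replicate 2 (-8.42 to 0.206 points) and 20.5% in DNA-PKcs-/- replicate 5. Neither PQR/PQR library differed from DNA-PKcs-/- replicate 5 past the threshold (two-sided Fisher's exact tests on junctions, adjusted p = 0.312 and 0.113), while PQR/PQR replicates 1 and 2 differed (adjusted p = 0.00671). Among Sμ junctions alone, 381 of 468 were deletional in PQR/PQR replicate 1 (81.4%), 77 of 122 in PQR/PQR replicate 2 (63.1%) and 173 of 287 for DNA-PKcs-/- replicate 5 (60.3%). PQR/PQR replicate 1 thus stood above both others (Fisher's exact tests, adjusted p = 4.35e-09 against DNA-PKcs-/- replicate 5 and 1.66e-04 against PQR/PQR replicate 2), and PQR/PQR replicate 2 did not differ from DNA-PKcs-/- replicate 5 past the threshold (adjusted p = 0.689, interval of the difference -7.57 to 12.7 points). All adjusted p-values between libraries are Benjamini-Hochberg values over 22 tests. A difference is called when it is below 0.05 in the same direction for both PQR/PQR libraries. These tests compare libraries. For genotypes, 2 libraries against 1 allow 3 splits and a smallest exact p of 0.333. Of the 8 results tested between libraries, 2 were called, the direct share and the distal share.

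The position of the prey needs 1 fact about the deposited sheets first. The pool of each genotype holds its libraries and further junctions. Of the 2014 junctions that only the PQR/PQR pool holds, 182 were deletional Sμ joins (9.04%) and 1707 were deletional joins to Sγ1. Deletional Sμ joins were thus 640 of 4167 junctions (15.4%) in the whole PQR/PQR pool, against 22.7% and 16.3% in the sheets of replicates 1 and 2. The 182 deletional Sμ junctions that only the PQR/PQR pool holds all lie between 114665049 and 114667908, that is, 1349 to 4208 bp from the primer, in the repeat core. The pool-only Sε lines of the same pool, 21 in all, carry the sequencing run and the first 6 read bases of PQR/PQR replicate 1 in 21 cases, and its 9 pool-only large-insertion lines carry those of replicate 1 or 2 in 9 cases. Read names of the 182 Sμ junctions themselves were not checked. Likewise, 23 deletional lines of the DNA-PKcs-/- pool carry the run and first bases of DNA-PKcs-/- replicate 5 but are not in its own list, and they lie 1446 to 4003 bp from the primer. The sheet of DNA-PKcs-/- replicate 5 thus lacks some junctions of the repeat core, and the sheets of the PQR/PQR libraries may do so too. Distances and the distal, direct, long-MH and insertion shares are therefore also given with these junctions. Of the 21 pool-only Sε lines, 20 had a bait alignment that does not start at the primer. Bait alignments of the 182 pool-only Sμ junctions were not checked, so their junction classes may be unlike those of the libraries. Sums with the pool-only junctions join both PQR/PQR libraries, and no p-value is given for them, since junctions are not replicates of a genotype.

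Fewer deletions ended in the distal part of Sμ in the PQR/PQR libraries. The median distance of the prey from the primer's first base was 1020.0 bp in PQR/PQR replicate 1, 1274 bp in PQR/PQR replicate 2 and 1528 bp in DNA-PKcs-/- replicate 5. The 75th percentile separated the libraries more, at 1691 bp, 2698 bp and 4503 bp in the same order of libraries. The mean distance was 1290.4 ± 63.8 bp in PQR/PQR replicate 1 (SEM over 381 junctions), 1585 ± 185 bp in PQR/PQR replicate 2 (77 junctions) and 2619 ± 176 bp in DNA-PKcs-/- replicate 5 (173 junctions). With the pool-only junctions the median was 1428 bp and the 75th percentile 2458 bp in PQR/PQR cells, against 2068 bp and 4314 bp for DNA-PKcs-/- replicate 5. The pool-only PQR/PQR junctions alone, all in the core, had a median of 2211 bp, and the DNA-PKcs-/- pool without the lines listed for replicate 5 had 1619 bp, so the order of the medians depends on which junctions are counted. Distal preys, those below the midpoint of the window and over 2757 bp from the primer, were 59 of 381 in PQR/PQR replicate 1 (15.5%), 19 of 77 in PQR/PQR replicate 2 (24.7%) and 81 of 173 for DNA-PKcs-/- replicate 5 (46.8%). The distal share was lower in both PQR/PQR libraries, by 31.3 points in replicate 1 (95% interval of the difference -39.5 to -23.0, Fisher's exact test, adjusted p = 6.39e-13) and by 22.1 points in replicate 2 (-33.3 to -9.22, adjusted p = 0.00336). The PQR/PQR libraries did not differ from each other past the threshold (Fisher's exact test, adjusted p = 0.113). With the pool-only junctions added, the distal share was 130 of 640 (20.3%) in PQR/PQR cells and 88 of 196 (44.9%) for DNA-PKcs-/- replicate 5. The call was lost with the limit 1 kb nearer to the primer (mean difference -19.5 points, largest adjusted p of the Fisher's exact tests = 0.110).

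**Figure D1:**
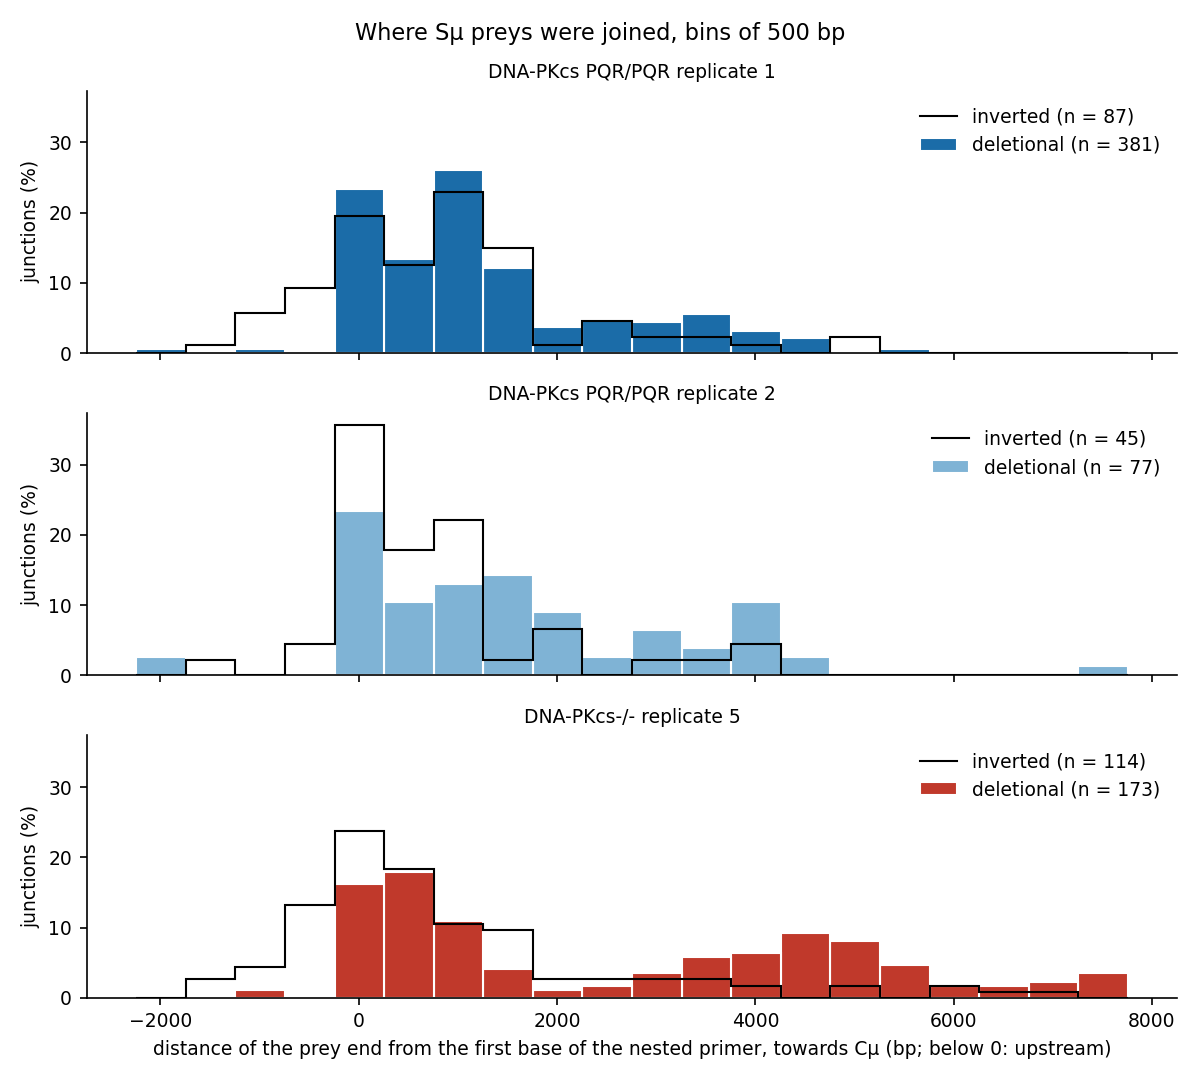
Share of Sμ junctions (y, percent) in bins of 500 bp by distance of the prey from the nested primer (x, bp) in each library. Bars are deletional and black outlines inverted junctions. Deletional preys reach beyond 5256 bp in 2 of 381 and 1 of 77 junctions in PQR/PQR replicates 1 and 2, against 24 of 173 in DNA-PKcs-/- replicate 5.

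The far end of the window was nearly empty in PQR/PQR cells. Beyond 5256 bp from the primer lay 2 preys in PQR/PQR replicate 1 (0.525%, Wilson interval 0.144 to 1.89%), 1 in PQR/PQR replicate 2 (1.30%, 0.230 to 7.00%) and 24 in DNA-PKcs-/- replicate 5 (13.9%, 9.50 to 19.8%). The 182 pool-only junctions of PQR/PQR cells and the 23 of DNA-PKcs-/- replicate 5 do not reach this zone. They leave its counts unchanged and would only enlarge the totals. The DNA-PKcs-/- pool without the lines listed for replicate 5 had 245 of 2058 (11.9%). This zone was drawn after the positions had been seen and is not tested. Between 1757 and 2756 bp, PQR/PQR replicates 1 and 2 had 32 preys (8.40%) and 9 preys (11.7%), against 5 (2.89%) in DNA-PKcs-/- replicate 5. That stretch lies inside the range of the pool-only junctions. With these added it held 129 of 640 deletions (20.2%) in PQR/PQR cells, against 14 of 196 (7.14%) for DNA-PKcs-/- replicate 5, so the order stayed the same and both shares were larger.

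The 3 fullest bins of 500 bp lay within 1756 bp of the primer in every library. In PQR/PQR replicate 1 the fullest bin of 500 bp was chr12:114668001-114668500 with 99 junctions (26.0%), followed by 89 in chr12:114669001-114669500 and 51 in chr12:114668501-114669000. In PQR/PQR replicate 2 the bin around the primer, chr12:114669001-114669500, came first with 18 junctions (23.4%), before 11 in chr12:114667501-114668000 and 10 in chr12:114668001-114668500. In DNA-PKcs-/- replicate 5 the order was chr12:114668501-114669000 with 31 junctions (17.9%), chr12:114669001-114669500 with 28 and chr12:114668001-114668500 with 19. Farther from the primer, this library had 16 junctions in chr12:114664501-114665000 and 14 in chr12:114664001-114664500. The bin around the primer and the one 757 to 1256 bp away are thus among the 3 fullest of each library. Preys upstream of the primer, which cannot come from a simple deletion between bait and prey, were 6, 2 and 2 junctions in PQR/PQR replicate 1, PQR/PQR replicate 2 and DNA-PKcs-/- replicate 5.

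Short deletions that just remove the AflII site were a visible part of the PQR/PQR junctions. Preys that began within the site or in the 50 bp past it made up 53 of 381 in PQR/PQR replicate 1 (13.9%, Wilson interval 10.8 to 17.7%), 10 of 77 in PQR/PQR replicate 2 (13.0%, 7.21 to 22.3%) and 7 of 173 for DNA-PKcs-/- replicate 5 (4.05%, 1.97 to 8.12%). The DNA-PKcs-/- pool without the lines listed for replicate 5 had 83 of 2058 (4.03%). This stretch was chosen after its counts were seen and has no test. The 2 prey positions found in all 3 libraries both lie here, at 114669140 and 114669150. Each was used 3 times in PQR/PQR replicate 1, 2 times in PQR/PQR replicate 2 and once in DNA-PKcs-/- replicate 5. Preys that began between the site and the primer, and so kept the site in the read, were 11 (2.89%), 3 (3.90%) and 7 (4.05%) in the same order of libraries.

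The joins themselves differed in the share of direct joins, in which bait and prey abut with no shared and no inserted base. Direct joins were 112 of 381 in PQR/PQR replicate 1 (29.4%), 25 of 77 in PQR/PQR replicate 2 (32.5%) and 13 of 173 for DNA-PKcs-/- replicate 5 (7.51%). The direct share was higher in both PQR/PQR libraries, by 21.9 points in replicate 1 (95% interval of the difference 15.3 to 27.5, Fisher's exact test, adjusted p = 1.15e-08) and by 25.0 points in replicate 2 (14.3 to 36.4, adjusted p = 8.40e-06). PQR/PQR replicates 1 and 2 did not differ past the threshold (Fisher's exact test, adjusted p = 0.646, interval -15.0 to 7.47 points). With the pool-only junctions the direct share was 179 of 640 (28.0%) in PQR/PQR cells and 16 of 196 (8.16%) for DNA-PKcs-/- replicate 5. The comparison with PQR/PQR replicate 1 is the one within a sequencing run, since PQR/PQR replicate 2 was read in another run.

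**Figure D2:**
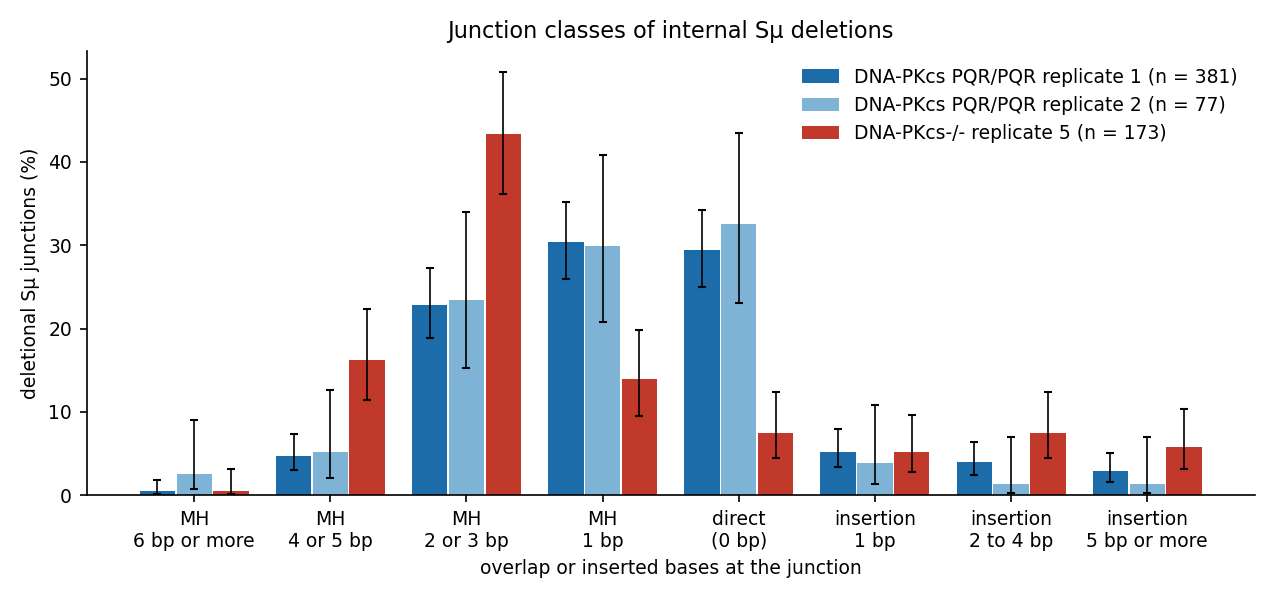
Share of deletional Sμ junctions (y, percent) by shared or inserted bases (x) in the 3 libraries, with 95% Wilson intervals as error bars. Direct joins are 29.4% and 32.5% in PQR/PQR replicates 1 and 2 and 7.51% in DNA-PKcs-/- replicate 5, whose fullest class is MH of 2 or 3 bp at 43.4%.

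MH of any length was present in 223 of 381 junctions in PQR/PQR replicate 1 (58.5%), 47 of 77 in PQR/PQR replicate 2 (61.0%) and 128 of 173 for DNA-PKcs-/- replicate 5 (74.0%). A single shared base made up 116 of 223 MH junctions in PQR/PQR replicate 1 (52.0%), 23 of 47 in PQR/PQR replicate 2 (48.9%) and 24 of 128 for DNA-PKcs-/- replicate 5 (18.8%). MH of 2 or 3 bp made up 87 (39.0%), 18 (38.3%) and 75 (58.6%) in the same order of libraries. The commonest class was thus a single base in both PQR/PQR libraries and 2 or 3 bp in DNA-PKcs-/- replicate 5. Mean MH among MH junctions was 2.11 ± 1.56 bp in PQR/PQR replicate 2 (SD over 47 junctions) and 2.65 ± 1.28 bp in DNA-PKcs-/- replicate 5 (128 junctions).

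MH of 4 bp or more was lower past the threshold in 1 of the 2 PQR/PQR libraries. It was found in 20 of 381 deletions in PQR/PQR replicate 1 (5.25%), 6 of 77 in PQR/PQR replicate 2 (7.79%) and 29 of 173 for DNA-PKcs-/- replicate 5 (16.8%). It was lower in PQR/PQR replicate 1 than in DNA-PKcs-/- replicate 5 by 11.5 points (95% interval of the difference -18.0 to -5.97, Fisher's exact test, adjusted p = 1.40e-04), and the difference of -8.97 points in PQR/PQR replicate 2 missed the threshold (-16.5 to 0.532, adjusted p = 0.118). Among MH junctions alone the shares were 8.97%, 12.8% and 22.7% in PQR/PQR replicate 1, PQR/PQR replicate 2 and DNA-PKcs-/- replicate 5 (Fisher's exact tests, adjusted p = 0.00205 and 0.294). With the pool-only junctions MH of 4 bp or more was 33 of 640 (5.16%) in PQR/PQR cells and 36 of 196 (18.4%) for DNA-PKcs-/- replicate 5. MH of 6 bp or more was rare, with 2, 2 and 1 junctions, too few at this depth to compare.

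The bases of the longer MH were compared with the motif of the Sμ repeat. Of the MH of 4 bp or more, 5 of 6 in PQR/PQR replicate 2 held AGC or GCT, against 17 of 29 in DNA-PKcs-/- replicate 5 (58.6%, Wilson interval 40.7 to 74.5%). The whole motif AGCT lay within 1 of 6 and within 12 of 29 (41.4%, 25.5 to 59.3%). The pentamer AGCTG as the whole MH, named after its counts were seen, recurred among these. It made up the whole MH in 0 of 6 long MH junctions in PQR/PQR replicate 2, against 8 of 29 in DNA-PKcs-/- replicate 5. A count of 0 says little at this number. The 8-bp MH printed above for each library also begins with AGCTG and is not counted here. One AGCTG junction, chosen for printing after its bases had been seen, had its bait end at 114669190 and its prey end at 114666655, 2535 bp apart.
DNA-PKcs-/- replicate 5, MH of AGCTG: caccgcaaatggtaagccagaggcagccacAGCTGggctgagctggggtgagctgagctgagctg
In the lists, all MH bases matched both the bait and the germline bases of the prey in 46 of 47 MH junctions of PQR/PQR replicate 2 and in 127 of 128 of DNA-PKcs-/- replicate 5. Only the 8-bp junctions printed above did not.

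Insertions were 46 of 381 in PQR/PQR replicate 1 (12.1%), 5 of 77 in PQR/PQR replicate 2 (6.49%) and 32 of 173 for DNA-PKcs-/- replicate 5 (18.5%). The share was lower in PQR/PQR replicate 2 than in DNA-PKcs-/- replicate 5 (difference -12.0 points, 95% interval -19.4 to -2.68, Fisher's exact test, adjusted p = 0.0274), and the difference of -6.42 points in PQR/PQR replicate 1 missed the threshold (-13.5 to -0.166, adjusted p = 0.0971). Most were short. A single inserted base made up 20 of 46 in PQR/PQR replicate 1, 3 of 5 in PQR/PQR replicate 2 and 9 of 32 for DNA-PKcs-/- replicate 5. The longest was 8 bp in PQR/PQR replicate 2 and 24 bp in DNA-PKcs-/- replicate 5. The median was 1.00 bp and 3.00 bp in these libraries. With the pool-only junctions the shares were 13.9% in PQR/PQR cells and 19.4% in DNA-PKcs-/- replicate 5.

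The DNA-PKcs-/- pool holds listed junctions of 4 further sets of reads, each with a run and first bases of its own, which the labels do not name as samples. They had 1004, 926, 56 and 36 deletional Sμ junctions. Direct joins were 9.36%, 9.40%, 17.9% and 2.78% of them, MH of 4 bp or more 18.6%, 19.5%, 16.1% and 11.1%, and distal preys 39.3%, 37.3%, 37.5% and 38.9%. The Wilson interval of the direct share in PQR/PQR replicate 1, 25.0 to 34.2%, overlaps that of the third set, 10.00 to 29.8%, and not those of the 2 large sets (7.71 to 11.3% and 7.68 to 11.4%). Baits were read past the AflII site in 0 of 77 junctions of PQR/PQR replicate 2, against 4 of 173 in DNA-PKcs-/- replicate 5, 27.5% and 16.1% in the 2 large sets and 5.36% and 2.78% in the small ones. The part of this difference in the values of these sets was not tested. Deletional joins were 62.3%, 65.1%, 73.7% and 61.0% of their Sμ junctions.

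**Figure D3:**
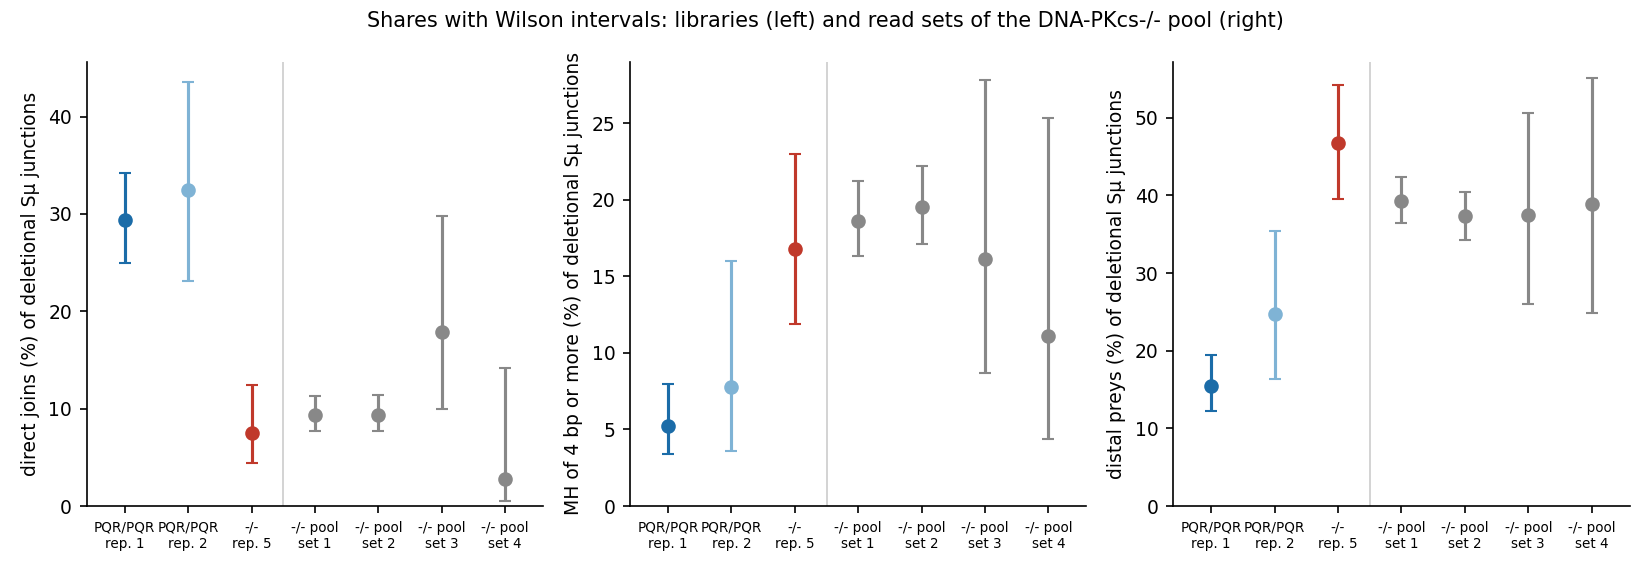
Direct joins, MH of 4 bp or more and distal preys as percent of deletional Sμ junctions (y) in the 3 libraries (left of the line) and the 4 further read sets of the DNA-PKcs-/- pool (right), with 95% Wilson intervals. Direct shares of PQR/PQR replicates 1 and 2 lie at 29.4% and 32.5%, above those of the read sets at 2.78% to 17.9%.

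The bait end could be read in the 2 libraries with a list. The bait was read for a median of 54.0 bp past the primer's first base in PQR/PQR replicate 2 (quartiles 44.0 and 70.0 bp) and 61.0 bp in DNA-PKcs-/- replicate 5 (45.0 and 72.0 bp). The first AGCT of the bait lies at chr12:114669191-114669194. Baits that ended in it or 1 base past it, MH bases counted with the bait, were 4 of 77 in PQR/PQR replicate 2 (5.19%, Wilson interval 2.04 to 12.6%), 24 of 173 in DNA-PKcs-/- replicate 5 (13.9%, 9.50 to 19.8%) and 218 of 2030 in the DNA-PKcs-/- pool list without replicate 5 (10.7%, 9.47 to 12.2%). The intervals of the 2 libraries overlap, and the stretch was chosen after its counts were seen.

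**Figure D4:**
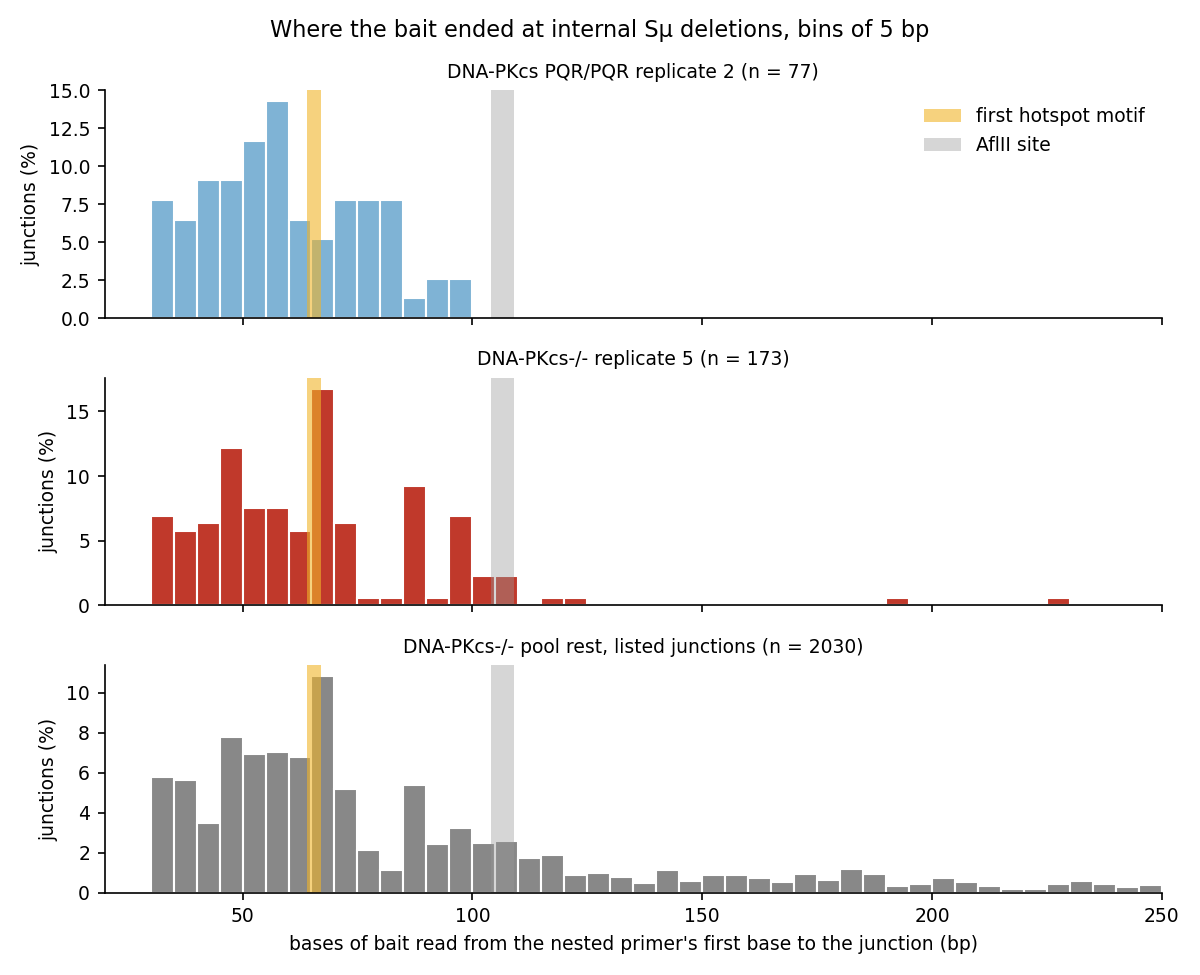
Share of deletional Sμ junctions (y, percent, scales differ) by bases of bait read before the junction (x, 5-bp bins) in PQR/PQR replicate 2, DNA-PKcs-/- replicate 5 and the DNA-PKcs-/- pool list without that library. Shaded bands are the first AGCT and the AflII site. No bait of PQR/PQR replicate 2 passes the AflII site, and 426 of 2030 in the pool list do.

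The motif AGCT reads the same on both strands and was searched as these 4 letters in the 20 germline bases around each prey end. It was present at 43 of 77 deletional preys of PQR/PQR replicate 2 (55.8%) and 74 of 173 of DNA-PKcs-/- replicate 5 (42.8%). Windows of 20 bases further along the same preys, bases 31 to 50 where the prey was that long, held it in 41 of 62 (66.1%) and 49 of 138 (35.5%), and the Wilson intervals at the prey end and further along overlap in both libraries (44.7 to 66.4% against 53.7 to 76.7%, and 35.6 to 50.2% against 28.0 to 43.8%). Around inverted preys it was present in 42.2% and 29.8% in PQR/PQR replicate 2 and DNA-PKcs-/- replicate 5.

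The length deleted was taken as the difference in coordinates from the bait end to the prey end, without a correction for shared bases. Its median was 1228 bp in PQR/PQR replicate 2 (quartiles 194 and 2622 bp) and 1483 bp in DNA-PKcs-/- replicate 5 (461 and 4465 bp). The shortest deletions were 16 bp and 14 bp, the longest 7438 bp and 7708 bp. Deletions over 1 kb were 58.4% in PQR/PQR replicate 2 and 57.8% in DNA-PKcs-/- replicate 5, a difference of 0.638 points (95% interval -12.6 to 13.4, Fisher's exact test, adjusted p = 1.00). At a limit of 2 kb the share was lower in PQR/PQR replicate 2 by 19.3 points (Fisher's exact test, adjusted p = 0.0122). Deletions over 4 kb were 7 of 77 (9.09%) in PQR/PQR replicate 2 and 62 of 173 (35.8%) for DNA-PKcs-/- replicate 5, and deletions of 1 to 100 bp were 13 of 77 (16.9%) and 15 of 173 (8.67%).

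**Figure D5:**
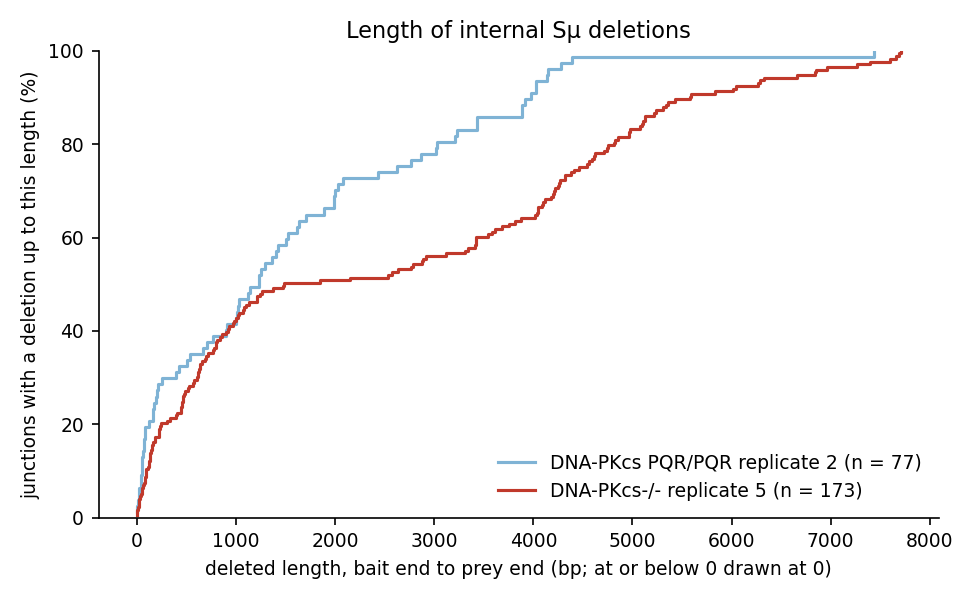
Cumulative share of deletional Sμ junctions (y, percent) by deleted length (x, bp) in PQR/PQR replicate 2 and DNA-PKcs-/- replicate 5. The curves meet near 1000 bp, where 58.4% and 57.8% of deletions are still longer. They part between 1 and 2 kb, which holds 28.6% and 8.67% of deletions in the same order.

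The direct share was then compared between long and short deletions. In PQR/PQR replicate 2 it was 31.1% above 1 kb and 34.4% at or below it (difference -3.26 points, 95% interval -24.1 to 16.9, Fisher's exact test, adjusted p = 0.898). In DNA-PKcs-/- replicate 5 it was 9.00% above 1 kb and 5.48% at or below it (-5.32 to 11.5 points, Fisher's exact test, adjusted p = 0.748). The larger rest of the DNA-PKcs-/- pool list showed direct joins in 25 of 166 deletions of 1 to 100 bp (15.1%) and 24 of 506 deletions over 4 kb (4.74%). MH of 4 bp or more went the other way there, with 12 of 166 (7.23%) and 99 of 506 (19.6%). These bins were not tested.

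Deletional Sμ joins were then set against inverted Sμ joins of the same library, which use the same window. Preys upstream of the primer were 28.7%, 20.0% and 36.0% of inverted joins in PQR/PQR replicate 1, PQR/PQR replicate 2 and DNA-PKcs-/- replicate 5. They were 1.57%, 2.60% and 1.16% of deletional joins in the same order of libraries. Such preys are never distal, and their part in the distal difference was not tested. Adjusted p-values within libraries are over 20 tests. MH of 4 bp or more was 5.25% of deletional and 23.0% of inverted joins in PQR/PQR replicate 1 (Fisher's exact test, adjusted p = 2.07e-05), 7.79% and 17.8% in PQR/PQR replicate 2 (adjusted p = 0.232), and 16.8% and 18.4% in DNA-PKcs-/- replicate 5 (adjusted p = 0.898). Direct joins were 29.4% of deletional and 17.2% of inverted joins in PQR/PQR replicate 1 (Fisher's exact test, adjusted p = 0.115), 32.5% and 11.1% in PQR/PQR replicate 2 (adjusted p = 0.0595), and 7.51% and 11.4% in DNA-PKcs-/- replicate 5 (adjusted p = 0.423). Distal preys were 15.5% of deletional and 8.05% of inverted joins in PQR/PQR replicate 1 (Fisher's exact test, adjusted p = 0.158), 24.7% and 8.89% in PQR/PQR replicate 2 (adjusted p = 0.134), and 46.8% and 12.3% in DNA-PKcs-/- replicate 5 (adjusted p = 7.73e-09). Insertions were 12.1% and 17.2%, 6.49% and 17.8%, and 18.5% and 19.3% of deletional and inverted joins in PQR/PQR replicate 1, PQR/PQR replicate 2 and DNA-PKcs-/- replicate 5, with no adjusted p below 0.149. None of these results passed the threshold in every library, and whether the deletional to inverted difference itself differed between libraries was not tested.

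Against deletional joins to Sγ1, which are switch events, internal deletions had direct shares of 29.4% against 22.4% in PQR/PQR replicate 1 (Fisher's exact test, adjusted p = 0.148), 32.5% against 31.2% in PQR/PQR replicate 2 (adjusted p = 1.00) and 7.51% against 14.0% in DNA-PKcs-/- replicate 5 (adjusted p = 0.148). MH of 4 bp or more was 5.25% against 8.94%, 7.79% against 9.38% and 16.8% against 25.7% in the same order of libraries (Fisher's exact tests, adjusted p = 0.149, 0.898 and 0.148). It was numerically lower in the internal deletions of all 3 libraries, and none of these differences passed the threshold. The PQR/PQR library sheets hold 246 and 64 deletional Sγ1 joins, and the PQR/PQR pool holds 1707 more, whose read names were not checked. In that pool MH of 4 bp or more was 5.16% of internal deletions and 11.3% of Sγ1 joins. Direct joins were 28.0% and 23.7%.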

How the data were processed

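The authors deposited, per library and per genotype pool, whole numbers of junctions by region, prey strand and junction class, mm9 positions of preys, and lists of single junctions with alignment bounds. The tools named in the submitters' processing notes are Bowtie2 and the mm9 build, and the junction caller is not given in the sources used here. A Sμ list was used for PQR/PQR replicate 2, DNA-PKcs-/- replicate 5 and the DNA-PKcs-/- pool, where 12 of 2231 deletional junctions were not used. Classes and positions computed from the library lists equalled the deposited sheets. MH is the overlap of bait and prey alignments in the read. The labels name no molecular identifiers, so Wilson and Newcombe 95% intervals cover counting error only. Fisher's exact tests and intervals were computed with Python 3.11.15, scipy 1.17.1 and statsmodels 0.14.6 and tested on simulated data. Read sets were formed from the run and first 6 bases of a read, with 1 mismatch allowed. Repeats of the same bait end and prey position numbered 0 in both library lists. No gene is named. The text names the 3 fullest bins of 500 bp per library and the longest MH, longest insertion and typical direct join per list. Members, limits and tests were chosen with earlier results of these data known.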

Additional observations from a re-analysis of the deposited data

Results flagged for a closer look

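The direct share of deletional minus inverted Sμ joins was 12.2 points in PQR/PQR replicate 1, 21.4 points in PQR/PQR replicate 2 and -3.89 points in DNA-PKcs-/- replicate 5, so it ran one way in both PQR/PQR libraries and the other way in DNA-PKcs-/- replicate 5. The difference between genotypes was not tested. The 4 further read sets of the DNA-PKcs-/- pool had direct shares of 9.36%, 9.40%, 17.9% and 2.78% in deletional and 5.76%, 8.47%, 5.00% and 0% in inverted joins, the direction of the PQR/PQR libraries.

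The direct share of internal deletions minus that of deletional Sγ1 joins was 7.04 points in PQR/PQR replicate 1, 1.22 points in PQR/PQR replicate 2 and -6.45 points in DNA-PKcs-/- replicate 5. This difference was not tested between genotypes either. In the pool-only junctions of PQR/PQR cells the direct share was 23.1% of internal deletions and 23.7% of Sγ1 joins, the direction of DNA-PKcs-/- replicate 5.

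The sheet of large insertions, which no comparison used, held 15 same-strand Sμ junctions in the DNA-PKcs-/- pool, with inserted stretches of 30 to 100 bp. In 8 of them the prey began within 20 bp of the primer's first base, with 66 to 93 unaligned bases. The same sheets held 1 such junction in PQR/PQR replicate 1, 0 in PQR/PQR replicate 2 and 0 in DNA-PKcs-/- replicate 5.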

How the results depend on the processing

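No paired analysis was possible because the genotypes share no replicate numbers. Values are mean differences in percentage points, PQR/PQR minus DNA-PKcs-/-, except those of Sμ minus Sγ1 and of long minus short spans, which are differences within libraries averaged over both genotypes. The direct share kept its direction under every alternative run, at 13.6 to 25.0 points against 23.4. A call needs both PQR/PQR libraries, so it does not apply with 1 left out or to sums of junctions. With insertions left out, the direct share kept its call (24.9). The distal share, at -26.7 points, ranged from -31.3 to -9.52 and kept its direction. Where a call applies, the distal share kept it, except with the limit 1 kb above the midpoint (-19.5, the cause was not tested). Its smallest value, -9.52, came from the rest of each pool, where PQR/PQR preys lie in the core only. Leaving out each PQR/PQR library gave -4.23 to 2.12 for the share of all junctions, 2.84 to 21.1 for the deletional share of Sμ, -12.0 to -6.42 for insertions, -11.5 to -8.97 for MH of 4 bp or more, -13.7 to -9.89 for its share of MH junctions, and -2.62 to 0.293 for direct joins of deletional Sμ minus Sγ1. The authors' pools sum libraries into 1 arm, so the tests on them treat junctions as replicates. With these pools the direct share at 18.6 and the distal share at -18.5 passed the threshold. Further results past it were the share of all junctions at -2.26, the deletional share of Sμ at 18.0, MH of 4 bp or more at -13.6, its share of MH junctions at -16.6, and MH of deletional Sμ minus Sγ1 at -5.98. The rest of each pool gave -8.37, 28.4, -15.1 and -18.8 for the first 4 of these further results, and 4.26 for insertions, which reverses them. Pools share reads with the libraries and lie partly in the repeat core only, so they are no separate check. MH from 2 bp was called at -30.5, MH from 6 bp gave 0.983, and MH of 4 bp or more with the pool-only junctions was -13.2 (a single pair of sums). Spans, known for PQR/PQR replicate 2 only, differed by -5.30 over 500 bp and by -19.3 over 2 kb (past the threshold), against 0.638 over 1 kb. Direct joins of long minus short spans were -1.84 at 500 bp, -3.05 at 2 kb and -2.77 in the DNA-PKcs-/- pool list alone, against 0.128. The pool-only junctions, the leaving out of preys upstream of the primer, and the leaving out of PQR/PQR libraries within libraries were added after seeing the data. Depth was lowest in PQR/PQR replicate 2, with 77 deletions.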

Other observations

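Few exact prey positions were shared between libraries. PQR/PQR replicates 1 and 2 shared 12 positions, which is 3.56% of the 337 positions of replicate 1 and 16.4% of the 73 of replicate 2. PQR/PQR replicate 1 and DNA-PKcs-/- replicate 5 shared 17, or 5.04% of 337 and 10.1% of 168. PQR/PQR replicate 2 and DNA-PKcs-/- replicate 5 shared 5, or 6.85% of 73 and 2.98% of 168. No position carried more than 3 junctions in PQR/PQR replicate 1 or more than 2 in the other libraries.

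The pool-only junctions of PQR/PQR cells were deletional in 182 of 198 cases (91.9%, Wilson interval 87.3 to 95.0%), above each library. In the Sε list of that pool, 20 of the 21 pool-only lines had a bait alignment that does not start at the primer. Among the 23 pool-only deletional junctions of DNA-PKcs-/- replicate 5 were 3 direct joins, 7 with MH of 4 bp or more and 6 with insertions.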
